A study of Mus musculus with 24 samples.

Results

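This report is concerned with the first 3 h of retinoic acid (RA) treatment in UTX-AID mouse embryonic stem cells (ESCs). The 8 libraries of this clone at 0 and 3 h of RA were chosen by their labels from the 24 libraries of the series, with 4 libraries at each time. In these cells an HA-AID degron tag sits at the N terminus of UTX, the H3K27 demethylase encoded by *Kdm6a*, and TIR1, the adaptor that recruits a ubiquitin ligase to the tag, is overexpressed. Cells were collected without auxin (−IAA) or after pretreatment with the auxin indole-3-acetic acid (+IAA), which leads to degradation of the tagged protein, and each arm had 2 replicates at 0 h and 2 at 3 h. All cells carried the tag and TIR1 and came from a single clone grown in serum and leukemia inhibitory factor (LIF) on gelatin. RA was given in medium without LIF, so that RA and loss of LIF cannot be told apart in what follows. IAA was dissolved in ethanol, and the sources do not say whether the −IAA cells received ethanol. The 8 libraries of BAP1-AID ESCs at the same times, a clone with the tag at the C terminus of the H2AK119 deubiquitinase BAP1 and with the same arms, served for comparison.

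RA is the active derivative of vitamin A. It binds RA receptors (RARs), which sit with retinoid X receptors (RXRs) on paired half-sites in DNA and exchange corepressors for coactivators when RA is bound. Early targets in ESCs are the genes that break down and bind RA itself, the receptors, and the Hox genes of the *Hoxa* and *Hoxb* clusters, which give cells of the embryo their position along the body axis and are held by Polycomb complexes before induction.

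Genes that rose outnumbered genes that fell. Of 15886 genes tested, 211 were called higher (1.33%) and 42 were called lower (0.264%), where a call stands for an adjusted p under 0.05 together with a log2 fold change above 1 or below −1. Levels are given as CPM, the deposited estimated counts scaled to one common library size. CPM is not divided by gene length and is compared here within a gene. The exception is the sums over marker lists below, which also depend on gene length and list size. The median log2 fold change over all genes tested was −0.0037. By the adjusted p alone, 846 genes were higher and 428 lower. Of the 211 genes called higher, 77 rose more than 4-fold, 96 had a mean below 1 CPM at 0 h, and 201 had all 4 libraries at 3 h above all 4 at 0 h. Of the 42 genes called lower, 36 showed no overlap between the times. Calls were made on these same libraries, so that such separation is favoured by the call and is not separate support. The share without overlap among all genes tested is not given. The replicates are separate samples by their labels, but no source says that they came from separate cultures, so that p-values measure the spread between these libraries.

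**Figure D1:**
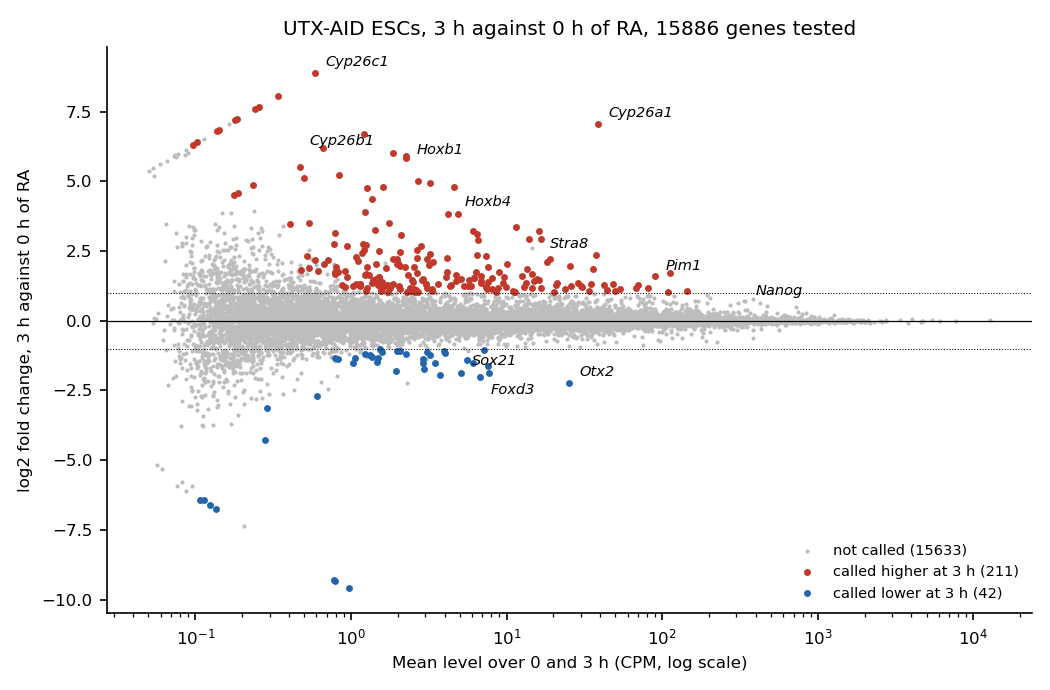
Each point is 1 of the 15886 genes tested in UTX-AID ESCs, with its mean level over 0 and 3 h of RA in CPM (log scale) on the x axis and its log2 fold change on the y axis, dotted lines at 1 and −1 marking the fold required for a call. The 211 genes called higher (red) outnumber the 42 called lower (blue), and *Cyp26a1* combines a change of 7.07 with a level at 3 h of 76.7 CPM.

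The total counts of the 8 libraries were between 42018795 and 54034789, and between 16609 and 16987 genes were detected in each. A level of 3 counts, used here as the detection limit, equals 0.0542 to 0.0693 CPM, a limit that covers counting error only. The ESC label was checked with markers. All 8 ESC markers were above 1 CPM, and their summed level was 3979 to 4539 CPM at 0 h and 4021 to 4464 CPM at 3 h. The 10 fibroblast or feeder markers summed to 4.83 to 8.53 CPM at 0 h and 4.34 to 8.66 CPM at 3 h, with *Postn* and *Lum* at 0 in all libraries and *Pdgfrb* called higher at 3 h. Extraembryonic endoderm markers summed to 27.9 to 32.7 CPM and 29.7 to 36.3 CPM, and two-cell-like markers to 19.4 to 30.6 CPM and 17.9 to 36.2 CPM, with 0 members called in both lists. Trophoblast markers summed to 12.7 to 17 CPM at 0 h and 16.8 to 21.4 CPM at 3 h, with *Prl3d1* at 0 and *Tfap2c*, which germ cells and trophoblast share, called higher. In bulk RNA, fewer cells of a type and less RNA per cell cannot be told apart.

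*Kdm6a* RNA was at 109, 113, 120.2 and 124 CPM at 0 h and at 93.2, 103, 106 and 112 CPM at 3 h (here and below, values are in the order −IAA replicates 1 and 2, then +IAA replicates 1 and 2). The times overlap, and the log2 fold change was −0.15 (standard error 0.0446, adjusted p = 0.0533). IAA acts on the protein, so these levels do not test whether UTX was lost. *Uty*, the paralogue on the Y chromosome, had 0 counts in all 8 libraries. *Kdm6b*, which encodes the related H3K27 demethylase JMJD3, went from 43.8, 50.2, 41.2 and 48.2 CPM to 77.0, 84.4, 72.0 and 83.6 CPM, above 0 h in all libraries but short of the fold required for a call (log2 fold change 0.81, standard error 0.0675, adjusted p = 2.05e-06).

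Receptor binding sequences were looked for around the start of every gene with a match in GENCODE vM39 on mm39. The receptor half-site AGGTCA was searched along with its variant GGGTCA, and the half-site AGTTCA along with its variant GGTTCA. They were searched as direct repeats with spacers of 5 (DR5), 2 (DR2) and 1 base (DR1), in any combination and on both strands, from 1000 bp before to 1000 bp after the start. A DR5 was found at 5 of 204 genes called higher (2.45%), at 1 of 37 called lower (2.7%) and at 90 of all 15329 genes tested with a window (0.587%). A DR2 was found at 4 genes called higher (1.96%), among them *Acp5* and *Dok4*, and at 1.02% of all genes. A DR1 was found at 1 gene called higher (0.49%) and at 1.23% of all genes. The DR5 of the 5 genes called higher are shown because DR5 is the spacing best known for RAR and RXR pairs. They are written on the strand of the repeat with 10 bases on either side and half-sites in capitals. *Cyp26a1* has the repeat directly before its start (chr19:37686224-37686240, minus strand) and *Rarb* 298 bp into the gene (chr14:5894234-5894250, plus strand). Those of *Csn3* (chr5:88073340-88073356, minus strand), *Arg1* (chr10:24804298-24804314, minus strand) and *Dok4* (chr8:95603624-95603640, minus strand) lie before the start.
Cyp26a1: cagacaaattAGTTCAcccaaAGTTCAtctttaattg
Rarb: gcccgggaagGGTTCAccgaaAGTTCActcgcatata
Csn3: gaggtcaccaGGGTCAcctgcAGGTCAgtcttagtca
Arg1: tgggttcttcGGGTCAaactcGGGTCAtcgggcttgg
Dok4: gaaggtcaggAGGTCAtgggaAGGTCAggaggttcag
The DR5 of *Dok4* overlaps a DR2 of the same gene. These are matches of letters in a 2000 bp window and not measured binding sites, and more distant sequence was not searched.

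Several genes that break down RA or move retinoids rose. Of 18 genes in a list for RA breakdown, binding and synthesis, 15 were tested, 7 were called higher and 0 lower, with a median log2 fold change of 1.37 against −0.0037 over all genes tested. *Cyp26a1* (chr19:37686241-37689984), which encodes the main enzyme that oxidizes RA, was at 0.00, 0.712, 0.906 and 0.659 CPM at 0 h and at 69.0, 84.8, 78.8 and 74.2 CPM at 3 h. It rose in every library, from a mean of 0.569 ± 0.394 to 76.7 ± 6.73 CPM (SD, n = 4, as for all means below), with a log2 fold change of 7.07 (standard error 0.262, adjusted p = 5.19e-10 in edgeR's quasi-likelihood test, which gave all adjusted p-values below). *Cyp26b1*, which encodes another such enzyme, went from 0.00, 0.00, 0.132 and 0.0799 CPM to 3.74, 4.95, 2.71 and 3.26 CPM (log2 fold change 6.01, standard error 0.532, adjusted p = 3.58e-06). *Cyp26c1*, the third, had 0 counts in all 4 libraries at 0 h and was at 1.55, 0.958, 1.30 and 0.924 CPM at 3 h, at least 19.7-fold higher against 3 counts per library (adjusted p = 7.06e-05). The 3 members of the Cyp26 family rose with no overlap between the times.

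*Dhrs3*, whose product reduces retinaldehyde back to retinol and so limits RA synthesis, rose from 1.12, 1.16, 1.26 and 1.24 CPM to 10.2, 12.7, 10.5 and 10.6 CPM (log2 fold change 3.21, standard error 0.134, adjusted p = 2.18e-09). *Stra6*, the receptor through which cells take up retinol, rose from 0.124, 0.407, 0.00 and 0.00 CPM to 4.96, 2.91, 2.33 and 2.06 CPM (log2 fold change 4.80, standard error 0.575, adjusted p = 7.06e-05). Both genes stood above 0 h in each of the 4 libraries. *Stra8*, a gene named for its stimulation by RA and needed for meiosis, rose from 3.63, 3.13, 3.53 and 2.54 CPM to 31.1, 32.4, 27.1 and 26.3 CPM (log2 fold change 3.20, standard error 0.104, adjusted p = 2.21e-10). *Aldh1a1*, *Aldh1a3* and *Adh7* were below the filter on low counts, and no tested enzyme of RA synthesis was called. *Rdh10* and *Aldh1a2*, which carry out its consecutive steps and were named after their values were seen, were at 5.34 ± 0.737 and 1.10 ± 0.187 CPM at 0 h and at 4.80 ± 0.811 and 1.14 ± 0.212 CPM at 3 h (adjusted p = 0.719 and 0.938). The RA-binding protein genes *Crabp1* and *Crabp2*, also named afterwards, had log2 fold changes of −0.29 (adjusted p = 0.280) and 0.43 (adjusted p = 0.0680).

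**Figure D2:**
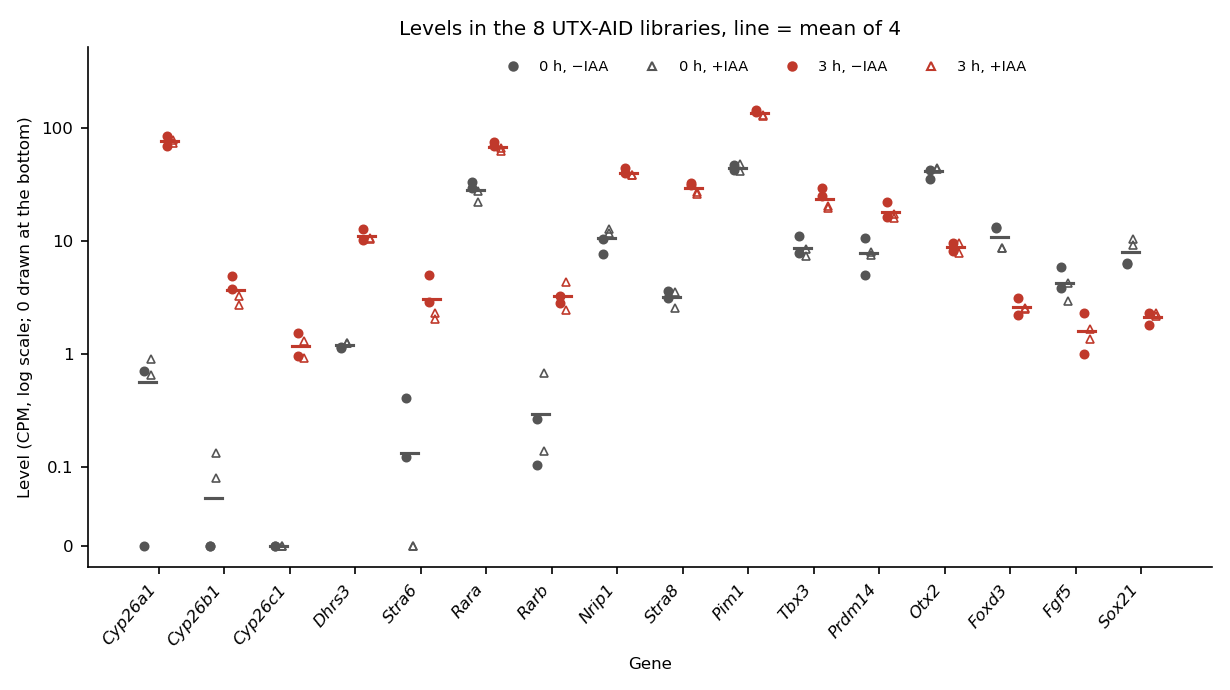
Levels of 16 genes in CPM (log scale, a level of 0 drawn at the bottom) in the 8 UTX-AID libraries, with circles for −IAA, triangles for +IAA, grey for 0 h, red for 3 h and lines for the means of 4 libraries. For every gene shown the libraries of the 2 times do not overlap, with *Otx2*, *Foxd3*, *Fgf5* and *Sox21* lower at 3 h and the other genes higher.

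Of the 13 RA receptor and coregulator genes, 13 were tested, 3 were called higher and 0 lower, and the median log2 fold change was 0.17. *Rara*, the RAR gene also known to be expressed in many adult tissues, rose from 33.5, 29.7, 22.0 and 27.6 CPM to 69.4, 74.6, 66.5 and 62.4 CPM (log2 fold change 1.30, standard error 0.0769, adjusted p = 7.86e-08). *Rarb*, known as a direct RA target and shown above with its DR5, rose from 0.104, 0.264, 0.680 and 0.140 CPM to 3.28, 2.83, 2.47 and 4.38 CPM (log2 fold change 3.50, standard error 0.424, adjusted p = 7.80e-05). *Nrip1*, which encodes the corepressor RIP140, rose from 10.4, 7.71, 11.8 and 12.8 CPM to 40.1, 44.6, 38.4 and 38.3 CPM (log2 fold change 1.95, standard error 0.118, adjusted p = 1.06e-07). For these genes all libraries at 3 h lay above all libraries at 0 h. *Rarg*, named after its values were seen, also showed no overlap but did not reach the fold for a call, with 136 ± 8.67 CPM at 0 h and 196 ± 18.2 CPM at 3 h (log2 fold change 0.54, standard error 0.0388, adjusted p = 4.24e-07). The RXR genes *Rxra* and *Rxrb*, named likewise, had log2 fold changes of 0.07 and 0.04 (adjusted p = 0.845 and 0.771).

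The Hox genes that rose lay in the *Hoxa* and *Hoxb* clusters. Of the 15 genes of paralogue groups 1 to 5, which are expressed towards the head end of the embryo, 13 were tested, 9 were called higher and 0 lower, with a median log2 fold change of 3.37. Of the 24 genes of groups 6 to 13, 15 were tested, 4 were called higher and 0 lower, with a median of 1.20. By cluster, 6 of 9 tested *Hoxa* genes and 7 of 10 tested *Hoxb* genes were called higher, against 0 of 2 tested *Hoxc* genes and 0 of 7 tested *Hoxd* genes, and the medians were 2.76, 4.90, 1.10 and −0.88. Of the 9 *Hoxc* genes only 2 had enough counts to be tested, so that a change there was mostly not detectable at this depth. Hox genes overlap antisense transcripts, and the sources used here do not give the strandedness of the libraries.

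*Hoxb1* (chr11:96256578-96259082), a known early target of RA, rose from 0.00, 0.224, 0.0755 and 0.00 CPM to 4.39, 5.38, 4.10 and 4.01 CPM (log2 fold change 5.89, standard error 0.511, adjusted p = 2.93e-06). It was detected in 2 of 4 libraries before RA and in all 4 after it. *Hoxb4* (chr11:96209093-96212464) rose from 0.353, 0.447, 0.378 and 0.120 CPM to 11.5, 11, 7.44 and 5.78 CPM (log2 fold change 4.78, standard error 0.233, adjusted p = 1.13e-08). *Hoxa5* rose from 0.00, 0.305, 0.359 and 0.140 CPM to 5.91, 8.56, 5.46 and 4.99 CPM (log2 fold change 4.92, standard error 0.440, adjusted p = 4.03e-06). Both had all libraries at 3 h far above 0 h, with the +IAA libraries below the −IAA libraries at 3 h.

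Between these genes, *Hoxb2* rose from 0.00, 0.00, 0.283 and 0.00 CPM to 5.56, 6.09, 3.92 and 2.30 CPM (log2 fold change 5.82, standard error 0.698, adjusted p = 7.11e-05). *Hoxb3* rose from 0.373, 0.142, 0.151 and 0.00 CPM to 5.86, 6.38, 4.34 and 4.17 CPM (log2 fold change 5.02, standard error 0.403, adjusted p = 1.37e-06). *Hoxb5* rose from 0.00, 0.00, 0.00 and 0.0799 CPM to 3.30, 2.67, 2.08 and 1.49 CPM (log2 fold change 6.70, standard error 0.650, adjusted p = 9.32e-06). As with *Hoxb4*, the −IAA libraries of each were the highest at 3 h. The test given below compares the RA response between the arms and called none of these genes. The difference in level at 3 h alone was not tested. *Hoxb6* had 0 counts in all 4 libraries at 0 h and 1.06, 0.815, 0.397 and 0.452 CPM at 3 h, at least 11.4-fold higher (adjusted p = 0.00124). In the *Hoxa* cluster, *Hoxa3* rose from 0.622, 0.590, 0.529 and 0.0998 CPM to 3.39, 4.22, 3.40 and 3.95 CPM (log2 fold change 3.07, adjusted p = 3.94e-05). *Hoxa4* rose with a log2 fold change of 3.26 (standard error 0.539, adjusted p = 0.00120).

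Further called genes came from groups 9, 10 and 13. *Hoxa9* rose from 0.124, 0.447, 0.359 and 0.300 CPM to 2.19, 2.30, 2.28 and 1.57 CPM (log2 fold change 2.76, standard error 0.358, adjusted p = 1.41e-04). *Hoxa10* rose from 1.58, 1.22, 2.02 and 0.939 CPM to 6.26, 7.48, 5.51 and 7.92 CPM (log2 fold change 2.25, standard error 0.221, adjusted p = 1.07e-05). *Hoxb13* rose from 0.0830, 0.142, 0.00 and 0.120 CPM to 0.716, 1.02, 0.903 and 1.30 CPM (log2 fold change 3.52, standard error 0.680, adjusted p = 0.00404). The libraries of the 2 times did not overlap for these genes. Genes between them were not called. *Hoxb8*, named with the next genes after the values were seen, had a log2 fold change of 3.94 with a standard error of 1.18 (adjusted p = 0.0580, but called by DESeq2, adjusted p = 0.00319, and in edgeR without −IAA replicate 2 at 0 h, adjusted p = 0.0221, with GC and length offsets and the replicate block, adjusted p = 0.0489, and with all 12 UTX-AID libraries, adjusted p = 0.00739). *Hoxa7* had 1.02 with 0.449 (adjusted p = 0.226, but called with all 12 UTX-AID libraries, adjusted p = 0.014). *Hoxa2* had 0.229 ± 0.224 CPM at 0 h and 0.828 ± 0.350 CPM at 3 h (adjusted p = 0.161). *Hoxd13* was the 1 Hox gene with an adjusted p under 0.05 and a lower level at 3 h, at 3.88 ± 1.02 and 2.09 ± 0.375 CPM (log2 fold change −0.88, adjusted p = 0.0189), short of the fold for a call. It passed the fold without −IAA replicate 2 at 0 h (−1.08, adjusted p = 0.00134) and in the +IAA arm alone (−1.07, adjusted p = 0.0448).

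**Figure D3:**
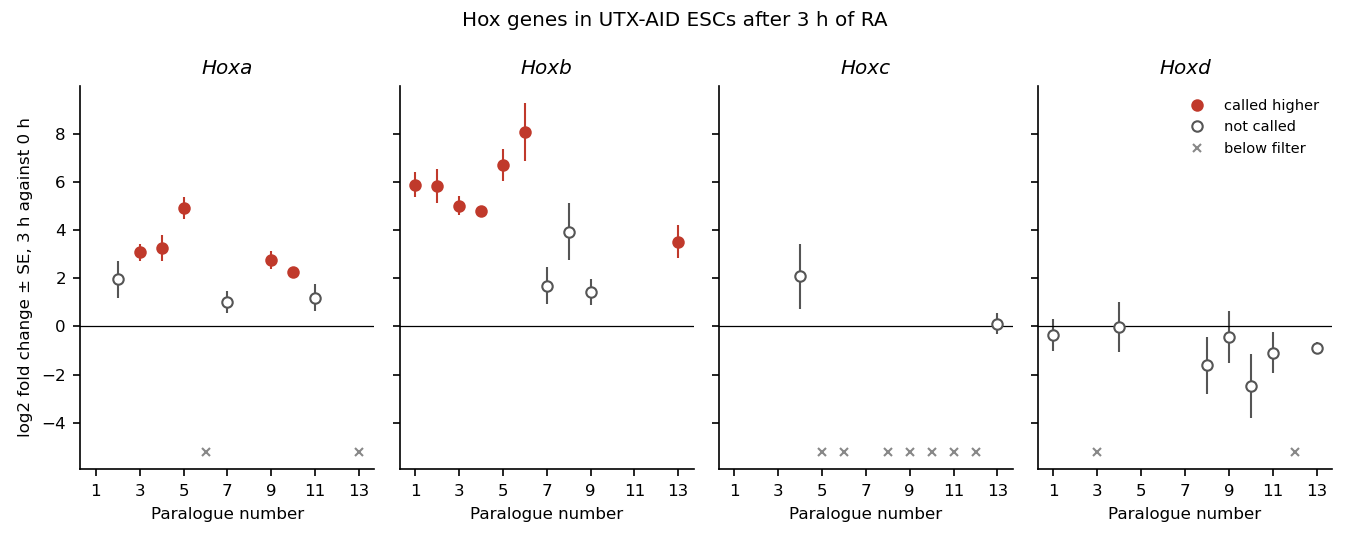
Log2 fold change after 3 h of RA in UTX-AID ESCs (y axis, bars are the standard error) of each Hox gene by its paralogue number (x axis) in the 4 clusters, filled red where called higher, open where not called, and a cross where the gene was below the filter on low counts, with 1 called *Hoxa* gene not drawn. The called genes are 6 of 9 tested in *Hoxa* and 7 of 10 in *Hoxb*, and 0 in *Hoxc* and *Hoxd*, and the point of *Hoxb6*, with 0 counts at 0 h, is a fitted value that depends on the prior count.

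Genes for partners of the Hox proteins are given by list, where 1.33% of all genes tested were called higher and 0.264% lower. Of 11 genes for TALE cofactors, which bind DNA beside Hox proteins, 1 was called higher and 0 lower, with a median log2 fold change of 0.16. *Meis2* rose from 7.72, 6.12, 4.40 and 4.53 CPM to 12.4, 15.1, 8.69 and 9.32 CPM (log2 fold change 1.02, standard error 0.112, adjusted p = 3.31e-05). All libraries at 3 h lay above those at 0 h, but the change was 0.95 without −IAA replicate 2 at 0 h, 0.97 without −IAA replicate 2 at 3 h and 1.00 without +IAA replicate 2 at 3 h, short of a call. *Tgif1* was at 92.2 ± 1.32 CPM at 0 h and 76.7 ± 2.82 CPM at 3 h (log2 fold change −0.25, adjusted p = 0.00246), and *Tgif2* had a log2 fold change of 0.10 (adjusted p = 0.388). Of 9 tested Cdx genes and caudal partners, 1 was called higher and 0 lower, with a median of −0.18. *Cdx1*, which activates posterior Hox genes in the embryo, was at 0.00, 0.00, 0.0566 and 0.00 CPM at 0 h and at 1.96, 1.39, 0.921 and 0.983 CPM at 3 h (adjusted p = 1.03e-04). Its summed count over 4 libraries was 3 at 0 h and 254 at 3 h, a ratio of 85.4 with a 95.0% exact interval for counting error of 28.9 to 417. *T*, the mesoderm gene brachyury, had a log2 fold change of 1.13 and was not called (adjusted p = 0.594).

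Pluripotency factors moved in both directions. Of 24 core and naive pluripotency factors, 2 were called higher and 0 lower, with a median log2 fold change of 0.02, although 12 had an adjusted p under 0.05, 7 of them higher and 5 lower. *Tbx3*, a naive factor, rose from 11, 7.87, 8.46 and 7.41 CPM to 29.7, 25.2, 20.5 and 19.6 CPM (log2 fold change 1.45, standard error 0.111, adjusted p = 8.31e-07). *Prdm14*, which represses DNA methyltransferase genes and FGF signalling, rose from 10.7, 4.96, 8.0 and 7.45 CPM to 22.0, 16.3, 16 and 17.5 CPM (log2 fold change 1.22, standard error 0.181, adjusted p = 4.81e-04). Both lay above 0 h in all libraries. *Sox2* was at 302, 312, 290.2 and 318 CPM at 0 h and at 254, 269, 231 and 233 CPM at 3 h, lower without overlap but short of the fold for a call (log2 fold change −0.29, standard error 0.0435, adjusted p = 4.85e-04). Named after their values were seen, *Nanog* had a log2 fold change of 0.71 (adjusted p = 1.16e-05), *Zfp42* one of −0.33 (adjusted p = 9.30e-05) and *Pou5f1* one of −0.01 (adjusted p = 0.964).

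Medium without LIF was used for RA, and the LIF receptor, STAT3 and LIF target genes are given for that reason. Of 21 tested, 2 were called higher and 0 lower, with a median log2 fold change of −0.24. By the adjusted p alone, 5 were higher and 6 lower. *Pim1*, a kinase gene activated by STAT3, rose from 47.0, 42.1, 47.6 and 41.3 CPM to 139, 143, 128 and 130.5 CPM (log2 fold change 1.61, standard error 0.0578, adjusted p = 4.34e-10). *Bcl3*, another STAT3 target, rose from 2.41, 1.32, 1.47 and 1.52 CPM to 4.43, 3.22, 3.22 and 3.26 CPM (log2 fold change 1.09, standard error 0.213, adjusted p = 0.00436). Without −IAA replicate 2 at 0 h the change of *Bcl3* was 0.94 and without −IAA replicate 1 at 3 h it was 0.99, short of a call. The called members thus went up, in medium that lacked LIF. Named after their values were seen, *Socs3*, the feedback inhibitor of LIF signalling, was at 4.94 ± 1.12 CPM and 5.18 ± 0.783 CPM (adjusted p = 0.833), and *Lifr*, the receptor, was at 141 ± 6.80 CPM and 90.3 ± 3.93 CPM (log2 fold change −0.62, standard error 0.0416, adjusted p = 2.16e-07).

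Formative markers, which come up as ESCs leave the naive state, were called in the lower direction. Of 18 genes in this list, which includes the DNA methyltransferases, 0 were called higher and 3 lower, with a median log2 fold change of −0.28, and by the adjusted p alone 4 were higher and 9 lower. *Otx2* (chr14:48894099-48911276), a transcription factor of the formative state and of the anterior nervous system, fell from 35.3, 42.7, 43.2 and 44.6 CPM to 8.08, 9.60, 7.88 and 9.63 CPM (log2 fold change −2.22, standard error 0.0912, adjusted p = 1.93e-09). *Foxd3*, which acts at enhancers in early epiblast, fell from 13.4, 13, 8.66 and 8.69 CPM to 3.14, 2.22, 2.57 and 2.48 CPM (log2 fold change −2.02, standard error 0.148, adjusted p = 5.34e-07). *Fgf5*, a ligand gene of the epiblast, fell from 3.82, 5.86, 4.25 and 2.94 CPM to 0.993, 2.32, 1.37 and 1.67 CPM (log2 fold change −1.37, standard error 0.254, adjusted p = 0.00295). The 3 genes had every library at 3 h below every library at 0 h. Named after their values were seen, *Dnmt3a* and *Dnmt3b*, the de novo DNA methyltransferase genes, had log2 fold changes of 0.65 (adjusted p = 0.00106) and −0.31 (adjusted p = 0.0222).

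Of 24 tested neural transcription factors and neuronal genes, 0 were called higher and 2 lower, with a median log2 fold change of −0.33. The called genes were *Otx2* and *Sox21*, an antagonist of SOX2 in neural progenitors. *Sox21* fell from 6.33, 6.24, 9.23 and 10.5 CPM to 2.29, 1.81, 2.15 and 2.30 CPM, without overlap (log2 fold change −1.87, standard error 0.153, adjusted p = 1.70e-06). *Sox11*, named after its values were seen, had every library at 3 h below 0 h and was just short of the fold for a call (log2 fold change −0.96, adjusted p = 2.04e-07). No gene of the list for neural identity was therefore called higher at this time, which lies near the 1.33% of all genes tested.

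Other genes are named as those with the largest falls among called genes with no overlap between the times and at least 10 counts in every library at 0 h. Larger fitted falls outside this limit are not described, among them those of the 7 genes called lower that had 0 counts in all 4 libraries at 3 h. *Zfp608*, a zinc finger gene, fell from 5.06, 8.07, 5.95 and 4.85 CPM to 1.55, 1.69, 1.17 and 1.63 CPM (log2 fold change −1.96, standard error 0.188, adjusted p = 8.21e-06). *Vrtn*, vertnin, fell from 11.7, 15.6, 9.42 and 11.7 CPM to 3.53, 4.99, 2.28 and 2.42 CPM (log2 fold change −1.89, standard error 0.155, adjusted p = 1.71e-06). *Tnfsf11*, which encodes the cytokine RANKL, fell from 8.61, 13, 11.5 and 13 CPM to 2.66, 4.04, 4.41 and 3.46 CPM (log2 fold change −1.64, standard error 0.159, adjusted p = 8.88e-06). In each of these the lowest library at 0 h was above the highest at 3 h. *Irs4*, an adaptor of insulin signalling, fell from 1.95, 4.94, 2.13 and 3.14 CPM to 1.09, 0.754, 0.921 and 0.629 CPM (log2 fold change −1.81, adjusted p = 0.00126). *Alx1*, a homeobox gene, fell from 1.43, 1.44, 0.396 and 0.799 CPM to 0.346, 0.306, 0.0903 and 0.00 CPM (log2 fold change −2.69, adjusted p = 0.0120). The call of *Alx1* was lost without the arm covariate (log2 fold change −2.45, adjusted p = 0.0722). It was also lost in the −IAA arm alone (adjusted p = 0.0800) and in the +IAA arm alone (adjusted p = 0.157). *Pxdc1* and the predicted gene *Gm14308* also fell, and the call of *Pxdc1* (adjusted p = 0.0316) rests on levels at or below 0.759 CPM and was lost without any 1 of the libraries other than −IAA replicate 2 at 3 h (adjusted p = 0.0510 to 0.119).

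Genes outside the retinoid and Hox lists also rose from low levels at 0 h. *Cdk15*, a cyclin-dependent kinase gene, had 0 counts in all 4 libraries at 0 h and 0.600, 0.815, 0.289 and 0.354 CPM at 3 h, at least 8.58-fold higher (adjusted p = 0.00353). *Serpinf2*, which encodes a plasmin inhibitor, went from 0 counts to 0.439, 0.408, 0.235 and 0.413 CPM, at least 6.23-fold higher (adjusted p = 0.00987), and its call was lost without +IAA replicate 2 at 3 h (adjusted p = 0.0552). These low levels were seen in every library at 3 h. *Csn3*, the kappa-casein gene, rose from 0.124, 0.0610, 0.00 and 0.00 CPM to 1.96, 1.53, 1.32 and 1.69 CPM (log2 fold change 5.24, standard error 0.625, adjusted p = 6.92e-05). *Arg1*, the arginase gene, rose from 0.0830, 0.00, 0.00 and 0.00 CPM to 1.25, 0.978, 0.325 and 1.14 CPM (log2 fold change 5.50, standard error 0.942, adjusted p = 0.00159). Both carry a DR5 shown above. *Oprd1*, the delta opioid receptor gene, rose from 0.00, 0.00, 0.283 and 0.120 CPM to 1.96, 2.71, 1.84 and 3.18 CPM (log2 fold change 4.74, adjusted p = 1.51e-04), and *Dlx3*, a homeobox gene, rose with a log2 fold change of 5.11 (adjusted p = 0.00147). The predicted gene *Gm11538* had 3 counts over the 4 libraries at 0 h and 91 at 3 h (ratio 30.6, 95.0% exact interval for counting error 10.1 to 151), and its call was lost without any 1 of 5 libraries (adjusted p = 0.0533 to 0.130), among them −IAA replicate 2 and both +IAA replicates at 0 h and −IAA replicate 2 and +IAA replicate 1 at 3 h.

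Calls among signalling genes are set beside the 1.33% of all genes tested that were called higher and the 0.264% called lower. Of 22 FGF and ERK output genes, 3 were called higher and 0 lower, with a median log2 fold change of 0.03. *Dusp5*, a phosphatase gene for nuclear ERK, rose from 4.19, 2.46, 3.11 and 3.81 CPM to 9.10, 8.97, 5.58 and 8.31 CPM (log2 fold change 1.24, standard error 0.187, adjusted p = 5.55e-04). *Phlda1* rose from 4.44, 6.08, 4.53 and 3.10 CPM to 11.9, 11.7, 8.73 and 8.69 CPM (log2 fold change 1.20, standard error 0.136, adjusted p = 4.41e-05). *Fgfr4*, an FGF receptor gene, rose from 0.954, 0.793, 1.32 and 0.759 CPM to 2.61, 2.71, 1.63 and 2.0 CPM (log2 fold change 1.22, standard error 0.268, adjusted p = 0.0105). The times did not overlap for these genes. Of 17 Nodal and Lefty genes, 1 was called higher and 0 lower, with a median of 0.04. *Lefty1*, which encodes an inhibitor of Nodal, rose from 93.9, 65.5, 75.3 and 56.3 CPM to 162, 129, 160.2 and 130.1 CPM (log2 fold change 1.02, standard error 0.125, adjusted p = 8.70e-05). Without −IAA replicate 2 or +IAA replicate 2 at 0 h, or −IAA replicate 1 or +IAA replicate 1 at 3 h, the change of *Lefty1* was 0.91 to 0.98, short of a call. *Tdgf1* and *Skil* were at log2 fold changes of 0.22 and 0.27 (adjusted p = 7.18e-04 and 0.0112).

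Of 23 tested Wnt ligands and targets, 3 were called higher and 1 lower, with a median log2 fold change of 0.05. *Wnt8a*, a ligand gene known to respond to RA in the hindbrain region, rose from 0.913, 0.590, 0.812 and 0.779 CPM to 3.49, 4.04, 3.23 and 2.32 CPM (log2 fold change 2.08, standard error 0.236, adjusted p = 4.24e-05). The other genes called higher were *Cdx1*, described above, and *Wnt1*. *Wnt1* had 0 counts in all 4 libraries at 0 h and 0.277, 0.0815, 0.289 and 0.177 CPM at 3 h, at least 3.44-fold higher (adjusted p = 0.0484), and the call was lost whichever library was left out (adjusted p = 0.0909 to 0.187). *Wnt5a*, a ligand gene of the noncanonical pathway, fell from 0.913, 1.61, 1.36 and 0.919 CPM to 0.462, 0.408, 0.415 and 0.531 CPM (log2 fold change −1.38, standard error 0.350, adjusted p = 0.0255). Of 18 tested BMP genes, 0 were called higher and 1 lower, with a median of −0.04. *Fst*, which encodes the inhibitor follistatin, fell from 1.68, 1.61, 0.680 and 0.659 CPM to 0.346, 0.530, 0.415 and 0.354 CPM (log2 fold change −1.34, standard error 0.375, adjusted p = 0.0421). The call of *Fst* was lost without any 1 of the libraries other than +IAA replicate 1 at 3 h (adjusted p = 0.0536 to 0.130). That of *Wnt5a* was lost without −IAA replicate 2 or +IAA replicate 1 at 0 h, or without −IAA replicate 1, −IAA replicate 2 or +IAA replicate 1 at 3 h (adjusted p = 0.0530 to 0.122). The receptor genes *Bmpr1a* and *Bmpr2* had log2 fold changes of −0.10 and −0.09 (adjusted p = 0.201 and 0.614).

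Of 16 tested endoderm transcription factor genes, 2 were called higher and 0 lower, with a median log2 fold change of 0.24. The genes called include *Foxa1*, a pioneer factor gene, which rose from 0.353, 0.386, 0.378 and 0.300 CPM to 2.56, 2.10, 1.68 and 1.93 CPM (log2 fold change 2.54, standard error 0.278, adjusted p = 2.96e-05). Of 11 tested mesoderm and heart transcription factor genes, 1 was called higher and 0 lower, with a median of −0.05. *Snai1*, a repressor gene active when epithelial cells become migratory, rose from 0.270, 0.244, 0.378 and 0.220 CPM to 0.716, 1.08, 0.795 and 1.22 CPM (log2 fold change 1.79, standard error 0.426, adjusted p = 0.0175), and its call was lost without −IAA replicate 2 at 3 h (adjusted p = 0.0684) or +IAA replicate 2 at 3 h (adjusted p = 0.0957). *Twist1* and *Isl1* had log2 fold changes of −0.60 and −0.51 (adjusted p = 0.158 and 0.397), and *Gata4*, of the endoderm and heart, was at 1.47, 0.590, 0.566 and 1.56 CPM at 0 h and at 0.600, 0.775, 1.08 and 0.472 CPM at 3 h with overlap (log2 fold change −0.50, adjusted p = 0.626). *Wnt10b* and *Nkx2-5* were below the filter on low counts.

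Orphan nuclear receptors had 0 of 15 tested genes called, with a median log2 fold change of −0.04 and 5 genes higher by the adjusted p alone. *Nr0b1*, a gene of naive ESCs, was at 110.4 ± 11.1 CPM and 137 ± 9.47 CPM (log2 fold change 0.33, adjusted p = 0.00455), and *Esrrb* at 168 ± 24.0 CPM and 159 ± 20.4 CPM (adjusted p = 0.833). Immediate early genes had 0 of 23 called, with a median of −0.20, and by the adjusted p alone 2 were higher and 4 lower. With 1.33% of all genes tested called higher and 0.264% lower, 0 calls in either list lie near that share. *Ier2* was at 71.9, 75.1, 71.7 and 65.8 CPM at 0 h and at 83.7, 88.6, 79.9 and 80.7 CPM at 3 h (log2 fold change 0.24, standard error 0.0462, adjusted p = 0.00357). *Myc* was at 56.3, 51.0, 63.7 and 53.5 CPM and at 58.5, 56.7, 43.8 and 46.3 CPM, with overlap (log2 fold change −0.12, adjusted p = 0.542).

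The RNA of the listed chromatin regulators of H3K27 and H2AK119 stayed short of the fold for a call. Since 1.33% of all genes tested were called higher and 0.264% lower, 0 calls in 13 or 35 genes lie near that share. Of 13 tested genes for H3K27 demethylases and the MLL3/4 complex, in which UTX resides, 0 were called, with a median log2 fold change of −0.03, and *Kdm6b*, given above, was 1 of 2 with an adjusted p under 0.05. *Kmt2d* and *Ash2l* had log2 fold changes of −0.03 and 0.05 (adjusted p = 0.848 and 0.442), and *Ep300*, which encodes an acetyltransferase for H3K27, had −0.15 (adjusted p = 0.0625). A list of 35 genes held subunits of PRC2 and PRC1, the Polycomb complexes that write H3K27me3 and H2AK119ub1. It also held *Bap1*, *Asxl1* and *Asxl2*, of the complex that removes H2AK119ub1. Of the 35 genes, 0 were called, with a median of −0.03, and 5 had an adjusted p under 0.05. *Ezh2*, the methyltransferase gene, was at 281, 309.7, 321 and 345 CPM and at 284, 309.7, 293 and 318 CPM, with overlap (log2 fold change −0.04, adjusted p = 0.741). *Rnf2*, the ubiquitin ligase gene, had a log2 fold change of −0.11 (adjusted p = 0.0867), and *Bap1*, its counterpart among deubiquitinases, −0.05 (adjusted p = 0.739). *Mtf2*, a PRC2 accessory subunit gene, was at 677, 665, 663 and 682 CPM and at 807, 817, 825 and 843 CPM, higher in every library at 3 h by a small factor (log2 fold change 0.31, standard error 0.0296, adjusted p = 7.76e-06). *Aebp2*, another accessory subunit gene, named after its values were seen, went from 148 ± 8.50 CPM to 259.6 ± 4.80 CPM (log2 fold change 0.83, standard error 0.0438, adjusted p = 2.28e-08).

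Lists not tied to RA showed 0 called genes each. Over all genes tested 1.33% were called higher and 0.264% lower, so that 0 calls in lists of this size lie near that share. These were 6 AhR targets, which auxin-related indoles can induce, with a median log2 fold change of −0.14, 19 cholesterol genes (0.05), 15 heat shock and unfolded protein genes (−0.02), 12 p53 targets (−0.04), 15 hypoxia and glycolysis genes (−0.09) and 15 housekeeping genes (−0.02). By the adjusted p alone, 5 hypoxia and glycolysis genes, 1 heat shock gene and 1 p53 target passed. *Slc2a3*, a glucose transporter gene, was at 727 ± 37.7 CPM and 859 ± 61.2 CPM (log2 fold change 0.25, adjusted p = 0.00291). A list without a call says nothing of genes outside it. The comparison is of RA times with the IAA arm as covariate, so that it does not test whether auxin induced the AhR targets.

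**Figure D4:**
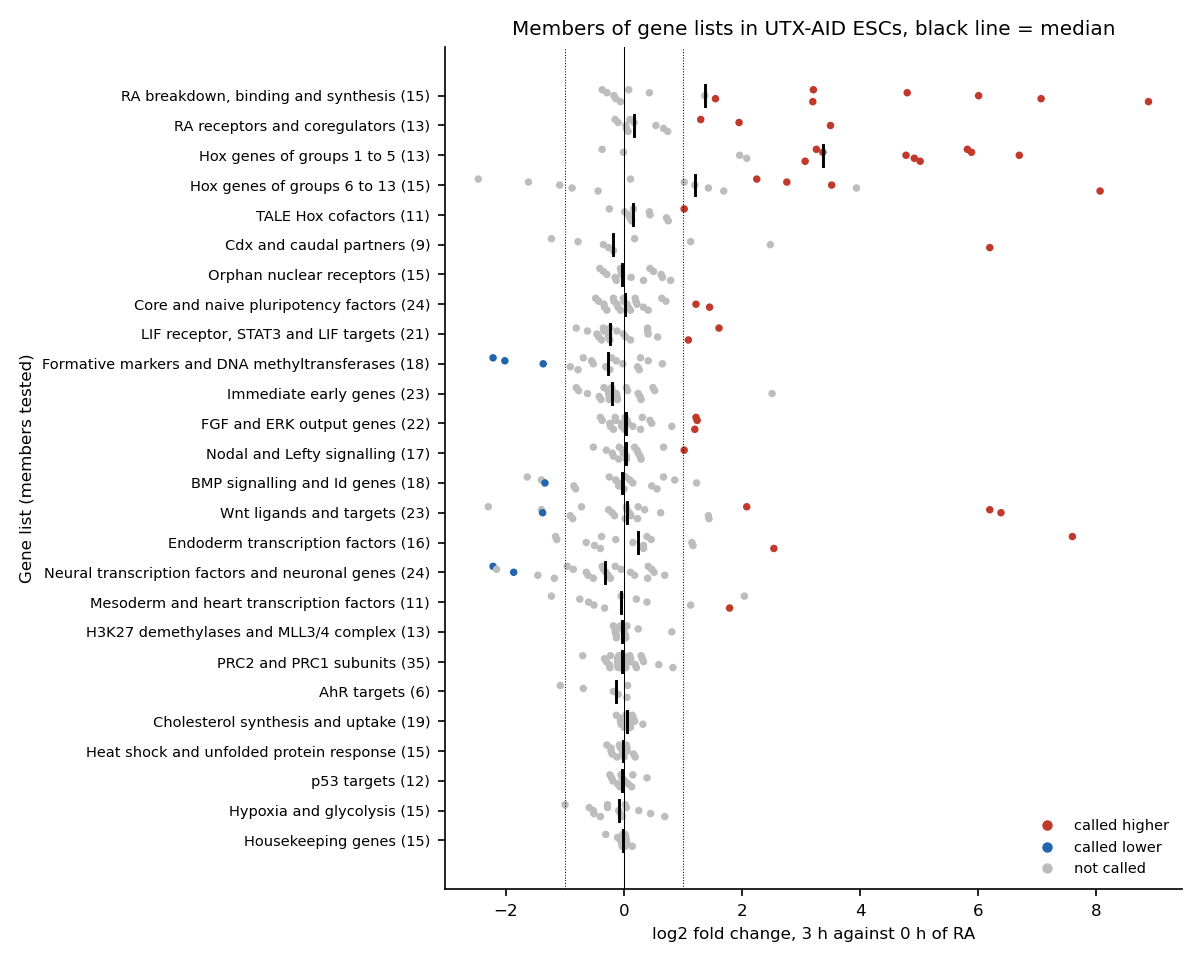
Log2 fold change after 3 h of RA in UTX-AID ESCs (x axis) of the tested members of 26 gene lists (y axis), with points for genes, black lines for medians and dotted lines at 1 and −1. The medians of the retinoid list (1.37) and of Hox genes of groups 1 to 5 (3.37) lie to the right, and the median of housekeeping genes (−0.02) lies near 0.

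The IAA arms answer whether the first 3 h of RA differed after UTX degradation was induced. No difference between the arms in the RA response was called, 0 of 15886 genes (0%) in edgeR, where 592 genes had an unadjusted p under 0.05 and the smallest adjusted p was 0.0558. DESeq2 called 5 genes. These were *Gm45351* (+IAA minus −IAA 5.44 on the log2 scale, adjusted p = 2.99e-07), *Htd2* (adjusted p = 2.30e-04, with 0 counts in both −IAA libraries at 3 h), *Gfra4*, *Pspn* and *Rplp2-ps1*, all named after their values were seen. edgeR called the first 2 of these without the filter on low counts (adjusted p = 0.00105 for each), with all 12 UTX-AID libraries (0.0114) and with GC and length offsets (0.0473). *Gm45351* was at 3.38, 1.71, 0.151 and 0.200 CPM at 0 h and at 1.36, 0.713, 4.05 and 2.10 CPM at 3 h, and *Htd2* at 2.03, 3.31, 5.21 and 2.70 CPM and at 0.00, 0.00, 1.93 and 3.14 CPM. *Gfra4* and *Pspn* stayed at or below 0.759 CPM in every library. Without the filter edgeR also called *Hmga1* (−3.89, adjusted p = 0.00329) and *Gm48551* (adjusted p = 0.00445), likewise named afterwards. *Hmga1*, a gene at higher levels, was at 43.8, 46.1, 267 and 202 CPM at 0 h and at 214, 44.9, 49.6 and 41.2 CPM at 3 h. Its −IAA replicates at 3 h were far apart, and the difference was −2.35 without replicate 1 of them and −4.62 without replicate 2. Each arm fitted alone, with 2 libraries a side, gave 154 genes higher and 21 lower in −IAA, and 163 higher and 32 lower in +IAA. A total of 115 genes were called higher and 10 lower in both arms separately. All 205 genes called higher and tested in each arm had the same sign in both arms, as did all 34 called lower, where the call itself was made on these libraries. In these separate fits, the median log2 fold change of the genes called higher was 1.72 in −IAA and 1.52 in +IAA. The median of the difference itself, +IAA minus −IAA, was −0.11 over the genes called higher and 0.07 over those called lower. A p that misses the threshold does not show that the arms were alike, and an effect of IAA on other proteins cannot be told apart from loss of UTX.

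The BAP1-AID clone gave a second measurement of the same RA times, but its +IAA arm had degradation of BAP1 induced and not of UTX. Both arms entered the values below. Fitted alone, its −IAA arm gave 203 genes higher and 26 lower, and its +IAA arm 353 higher and 108 lower. There 317 of 15323 genes were called higher (2.07%) and 84 lower (0.548%). Of the 211 genes called higher in UTX-AID, 205 were tested in BAP1-AID, where 150 were called higher (73.2%), which is 48.4% of the 310 genes called there and tested in UTX-AID. A total of 202 of the 205 had a positive log2 fold change in BAP1-AID, with a median of 1.92 there and of 1.62 in UTX-AID. Of the 42 genes called lower, 38 were tested in BAP1-AID and 18 were called lower (47.4%, which is 23.7% of 76), 36 had the same sign, and the medians were −1.22 in BAP1-AID and −1.52 in UTX-AID. The genes were chosen by their values in UTX-AID, so that only the values in BAP1-AID are free of that choice.

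The difference in RA response between the clones was tested in one fit of 16463 genes over 16 libraries. The response of a clone was taken over both of its IAA arms. The response was larger in UTX-AID for 1 gene (0.00607%) and smaller for 24 (0.146%). All 24 were called higher in BAP1-AID and 15 were called higher in UTX-AID. In 21 of the 24 the mean level at 0 h was higher in UTX-AID, with no overlap in 18, and in 16 the mean level at 3 h was lower in UTX-AID, with no overlap in 13. The 24 genes were chosen for a smaller ratio in UTX-AID, which itself favours a higher level at 0 h or a lower one at 3 h. The shares over all genes of the fit are not given, so that these counts describe the chosen genes only. Each tagged gene is represented by 1 clone, so that the clone and the tagged protein cannot be told apart.

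*Stra8*, at 2.54 to 3.63 CPM at 0 h in UTX-AID, was at 0.227, 0.569, 0.194 and 0.389 CPM in BAP1-AID at 0 h and at 28.2, 31.7, 34.6 and 36.3 CPM at 3 h. The clones overlapped at 3 h, and at 0 h every UTX-AID library was above 2.5 CPM. The difference in response was −3.34 (standard error 0.243, adjusted p = 4.05e-07). *Hoxa3* was at 0.133, 0.118, 0.0583 and 0.123 CPM and at 8.21, 8.58, 7.45 and 9.73 CPM in BAP1-AID (difference −3.18, standard error 0.474, adjusted p = 0.00171), and *Wnt8a* at 0.758, 0.765, 0.777 and 0.942 CPM and at 9.11, 9.87, 9.37 and 9.92 CPM (difference −1.47, standard error 0.255, adjusted p = 0.00704). For *Wnt8a* the clones overlapped at 0 h and were apart at 3 h.

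*Llgl2*, a cell polarity gene, went from 25.1, 23.2, 20.7 and 19.4 CPM to 46.4, 51.7, 40.8 and 45.2 CPM in UTX-AID and from 16.9, 15.6, 14.2 and 16.5 CPM to 70.0, 73.3, 77.3 and 76.1 CPM in BAP1-AID (difference −1.14, standard error 0.0963, adjusted p = 2.21e-06). *Inhbb*, which encodes an activin subunit, went from 20.4, 19.8, 19.0 and 21.4 CPM to 50.7, 57.2, 47.4 and 42.2 CPM in UTX-AID and from 4.02, 2.63, 2.86 and 2.85 CPM to levels of 19.6 to 20.3 CPM in BAP1-AID (difference −1.38, standard error 0.140, adjusted p = 1.80e-05). *Halr1*, a noncoding gene beside the *Hoxa* cluster, went from 28.1, 28.0, 31.0 and 28.5 CPM to 54.3, 58.5, 50.4 and 59.8 CPM in UTX-AID, just short of a call with a log2 fold change of 0.96 (called without +IAA replicate 1 at 0 h or at 3 h), and from 4.0, 3.61, 5.50 and 4.61 CPM to 16.2, 18.0, 21.1 and 20.2 CPM in BAP1-AID (difference −1.12, standard error 0.110, adjusted p = 1.80e-05). *Inhbb* and *Halr1* were higher in UTX-AID at both times, so that a smaller ratio went with a larger difference in CPM. The 1 gene with a larger response in UTX-AID, *Rsc1a1*, was at 0.643, 21.8, 0.113 and 1.06 CPM and at 25.5, 38.6, 0.253 and 28.5 CPM in UTX-AID, and at 32.4, 0.334, 35.7 and 40.5 CPM and at 1.78, 0.0588, 0.169 and 0.357 CPM in BAP1-AID (difference 8.05, standard error 1.75, adjusted p = 0.0460). Replicates of *Rsc1a1* within a group were far apart, the times overlapped in UTX-AID, and the difference was no longer called without any 1 of 11 of the 16 libraries (adjusted p = 0.0601 to 0.219).

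For *Cyp26a1* and *Otx2* no difference between the clones was called. *Cyp26a1* had log2 fold changes of 7.07 in UTX-AID and 8.04 in BAP1-AID (difference −0.98, adjusted p = 0.604, but −1.39 and adjusted p = 0.00188 without −IAA replicate 1 of UTX-AID at 0 h, the library with 0 counts), and *Otx2* had −2.22 and −1.67 (difference −0.56, adjusted p = 0.0334, short of the fold for a call).

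**Figure D5:**
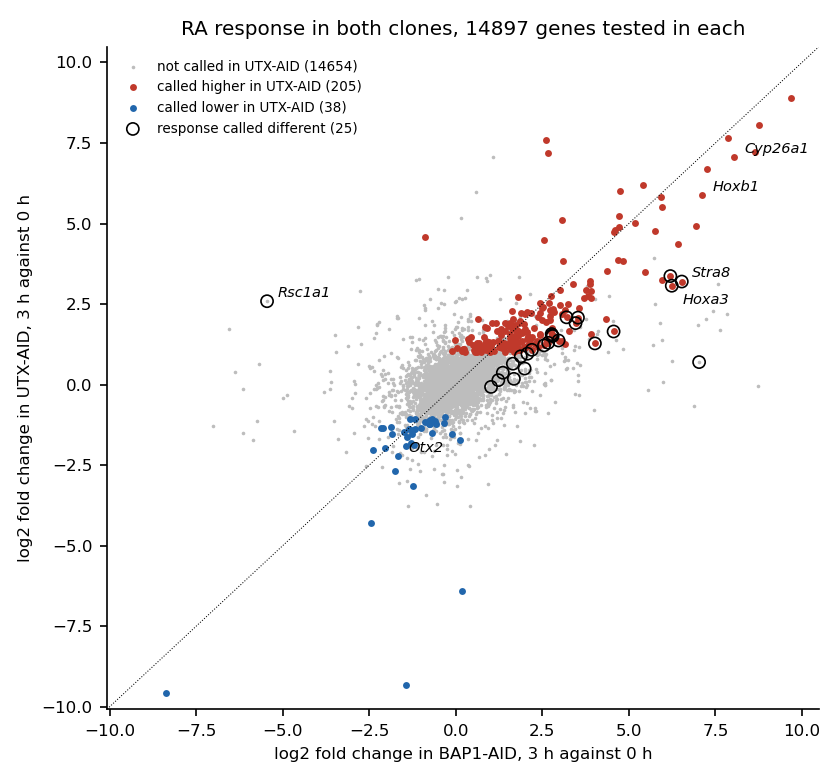
Log2 fold change after 3 h of RA in UTX-AID (y axis) and BAP1-AID ESCs (x axis) for the 14897 genes tested in both clones, red for 205 called higher and blue for 38 called lower in UTX-AID, grey for the other genes, with circles around the 25 genes whose response differed between the clones and a dotted line where both changes are equal. Of the circled genes 24 lie on the side of a larger response in BAP1-AID.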

How the data were processed

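RNA-seq was analysed for 8 UTX-AID libraries and, for comparison, 8 BAP1-AID libraries at 0 and 3 h of RA, grouped by their labels. The authors isolated RNA with TRIzol, selected it on oligo-dT beads, aligned reads to mm39 with HISAT2 2.2.1 and deposited estimated counts per gene from StringTie 2.2.1 as whole numbers, without normalization. The gene annotation and the strandedness are not given in the sources used here. Estimated counts are derived from transcript coverage, so that they are not tallies of reads and exact intervals on them are approximate.

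Counts were tested in R 4.3.3 with edgeR 4.0.16 (filterByExpr at 10 counts a library and 15 in total, TMM, quasi-likelihood F-test, two-sided, Benjamini-Hochberg adjustment over all genes of the fit) and limma 3.58.1 underneath. The design held RA time and the IAA arm. The difference between the arms was the interaction in the same libraries, and that between the clones the interaction over 16 libraries. Genes were called at an adjusted p under 0.05 together with a log2 fold change above 1 or below −1. The biological coefficient of variation was 11.9%. CPM used TMM factors over the 16 libraries (0.988 to 1.03 in UTX-AID). A side with 0 counts in all libraries was set to 3 counts per library for bounds. Replicates of a group had a Pearson correlation of 0.982 to 0.983 and shared 1.13 to 1.33% identical values above 0. Promoter windows used GENCODE vM39 on mm39, where 23897 of 26264 symbols (91.0%) matched. Python 3.11.15 (pandas 2.3.3, numpy 2.4.6, matplotlib 3.10.9) served for tables and plots. The fits were tested on simulated counts.

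The libraries, gene lists and the naming rule were chosen with earlier results of these data known. The rule names the genes the study names, the 20 called higher and 10 called lower with the largest change among called genes whose times do not overlap and which have at least 10 counts in every library of the higher side, each called list member with up to 2 abundant members of lists with few calls, and up to 5 genes for each difference between arms or clones. Alternatives were DESeq2 1.42.0, RLE size factors, no filter, the replicate number as a block, offsets for GC content and transcript length (splines with 5 degrees of freedom), alone and with the block, all 12 UTX-AID libraries, no arm covariate, each arm alone, and each library left out. The BAP1-AID arms alone were added after the data were seen. The libraries at 6 h entered only the fit of all 12, and ChIP-seq was not analysed here. Some genes that the rule names are not reported here.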

Additional observations from a re-analysis of the deposited data

Results flagged for a closer look

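A total of 7 genes are given for a closer look because a test of the difference itself (edgeR's interaction of RA time and clone) set the response in UTX-AID apart from that in BAP1-AID. As log2 responses in UTX-AID minus BAP1-AID, the values were −3.34 for *Stra8*, −3.18 for *Hoxa3*, −1.47 for *Wnt8a*, −1.14 for *Llgl2*, −1.38 for *Inhbb*, −1.12 for *Halr1* and 8.05 for *Rsc1a1*. In *Stra8*, *Llgl2*, *Inhbb* and *Halr1* the 4 UTX-AID libraries at 0 h were all above the 4 of BAP1-AID, and in *Hoxa3* and *Wnt8a* the clones overlapped. The part of the level at 0 h, of the clone and of the tagged protein in these differences was not tested. *Rsc1a1* rests on replicates that are far apart within groups. Groups hold 2 libraries, so that no single library was tested as standing apart.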

How the results depend on the processing

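In UTX-AID, the alternatives gave 154 to 245 genes called higher and 21 (−IAA arm only, with 4 libraries) to 57 called lower. Leaving out single libraries gave 190 to 209 higher and 31 to 41 lower, with at least 180 and 27 of the genes of the full fit among them. For the difference between the arms, 0 genes in edgeR became 5 with DESeq2, 4 without the filter, 2 with offsets for GC content and length, 2 with all 12 UTX-AID libraries and 0 to 3 with single libraries left out. For the difference between the clones, the genes with a larger response in UTX-AID numbered 11 with DESeq2, 4 without the filter and 1 to 5 with single libraries left out, and those with a smaller response 46 with DESeq2 and 21 to 30. In BAP1-AID, the −IAA arm alone gave 203 higher and 26 lower, the +IAA arm alone 353 higher and 108 lower, and single libraries left out gave 276 to 320 and 59 to 88. The causes were not tested.

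With the replicate number as a block, UTX-AID had 218 genes higher and 45 lower, the difference between arms 1 gene (1 also with GC and length offsets) and the larger response in UTX-AID 2 genes. The difference in log CPM between replicates 1 and 2 of a group was correlated with that of each other group. The 6 correlations of these differences were 0.0233 to 0.0867, so that the numbers were not taken to pair the libraries.

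Of 67 called genes named in the text, 47 kept the call in all alternatives and 20 lost it in at least 1, mostly with an arm alone or a library left out. Signs turned only for genes that were not called. In the +IAA arm alone *Bap1* was at 0.01, *Kmt2d* at 0.02, *Aldh1a2* at −0.22, *Hoxa7* at −0.11 and *Rxra* at −0.09, and in the −IAA arm alone *Ezh2* was at 0.02, *Myc* at 0.12, *Pou5f1* at 0.01 and *Socs3* at −0.23. With single libraries left out, *Kmt2d* ranged from −0.05 to 0.01, *Aldh1a2* from −0.10 to 0.16, *Esrrb* from −0.16 to 0.04, *Pou5f1* from −0.03 to 0.01 and *Socs3* from −0.01 to 0.27. Genes without a symbol match could not be given GC and length offsets. With 2 libraries a group, small changes and changes of genes near 3 counts may be missed, and RA and loss of LIF cannot be told apart.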

Other observations

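Genes outside the lists also changed, and the following were named after their values were seen. *Erf*, which encodes a repressor controlled by ERK, went from a mean of 52.9 to 172 CPM (log2 fold change 1.72, standard error 0.0441, edgeR adjusted p = 3.40e-11, n = 4 libraries a side). *Cntfr*, the receptor subunit for ciliary neurotrophic factor, which signals through the LIF receptor, went from 6.76 to 31.3 CPM (log2 fold change 2.22, standard error 0.0949, edgeR adjusted p = 2.66e-09). *Acp5*, a phosphatase gene with a DR2 near its start, went from 3.86 to 29.5 CPM (log2 fold change 2.94), *Camk2n1*, a kinase inhibitor gene, from 3.24 to 24.5 CPM (2.93) and *Tal2*, a transcription factor gene, from 1.56 to 11.6 CPM (2.91). Other genes that rose included *Notch4* (log2 fold change 1.66), *Hbegf* (1.62) and *Kit* (1.20). Among genes that fell, *Myb* went from 8.13 to 3.02 CPM (log2 fold change −1.42, edgeR adjusted p = 7.15e-05) and *Apln*, which encodes the peptide apelin, from 2.17 to 0.771 CPM (−1.47).

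*Gbx2*, a homeobox gene of the mid-hindbrain region and a pluripotency factor, was at 41.6, 34.7, 37.5 and 34.7 CPM at 0 h and at 31.6, 30.9, 30.3 and 29.9 CPM at 3 h in UTX-AID (log2 fold change −0.26, edgeR adjusted p = 0.0300). In BAP1-AID it was at 24.5, 27.3, 24.2 and 25.0 CPM and at 43.7, 40.9, 38.4 and 40.4 CPM (log2 fold change 0.66, edgeR adjusted p = 3.20e-05). The times did not overlap in either clone and the directions were opposite, with a difference of −0.93 (standard error 0.0956, edgeR adjusted p = 1.80e-05), short of the fold for a call.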
